A study of Mus musculus with 4 samples.

Results

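The immunity-related GTPases (IRG proteins) were followed in mouse T cells titled Tc1 or Tc9. Members were the 7 genes Irgm1, Irgm2, Igtp, Iigp1, Gm12250, Tgtp1 and Tgtp2, found by the gene symbol that the platform annotation gives each probe set. Of the 7, 6 had a probe set, 1 each, among the 19505 genes measured. Tgtp1 had none under its symbol and is not analysed here beyond its promoter. Total RNA was hybridised to 4 Affymetrix arrays, 2 of cells titled Tc1 and 2 of cells titled Tc9, numbered 1 and 2 in each group. Tc1 is the field's name for killer CD8 T cells rich in interferon gamma, Tc9 for those that secrete interleukin 9, and the stated question was how gene expression differs between them. Strain, age, cytokines, culture time and cell source were not given in the sources used here. The labels do not call the replicates separate cultures or animals, so p-values measure only the spread between these arrays, which may be technical.

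IRG proteins are GTPases that interferon gamma induces strongly in mouse cells. They gather on the vacuoles in which microbes such as Toxoplasma and Chlamydia live and help to break them open. The family has a regulator branch, Irgm1, Irgm2 and Igtp (also called Irgm3), which carry a methionine in place of the usual lysine of the nucleotide-binding loop and sit on the cell's own membranes, where they keep the others inactive. The effector branch, Iigp1 (Irga6), Gm12250 (Irgb10) and the near-identical Tgtp1 and Tgtp2 (Irgb6), has the usual loop and coats the vacuole. Promoters of genes that interferons induce often hold gamma-activated sites and interferon-stimulated response elements, the second of which IRF family factors bind.

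The promoters of 6 of the 7 members were matched by symbol in the RefSeq promoter table (build GRCm38.p6), which holds 300 bases a start site, from 250 before it to 50 after it. They are shown because the members moved together in these cells and 5 of the 6 carry both kinds of element close to one another. The elements searched were the response element core GAAANNGAAA, on both strands, and the gamma-activated site TTCNNNGAA, which reads the same on both strands, and both motifs were chosen after the sequences had been seen. Each stretch below runs 5′ to 3′ in the direction of the gene and ends before the start site, with all matches to either motif in capitals. Irgm1 is from chr11:48871421-48871480 (minus strand), Irgm2 from chr11:58214883-58214946 (plus), Igtp from chr11:58199492-58199555 (plus), Gm12250 from chr11:58183722-58183830 (plus), Tgtp1 from chr11:48992290-48992353 (minus) and Tgtp2 from chr11:49064249-49064312 (minus).
Irgm1: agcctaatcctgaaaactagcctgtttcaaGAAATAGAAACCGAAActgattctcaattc
Irgm2: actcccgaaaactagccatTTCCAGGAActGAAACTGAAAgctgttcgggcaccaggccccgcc
Igtp: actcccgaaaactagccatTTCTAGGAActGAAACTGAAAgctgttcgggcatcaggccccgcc
Gm12250: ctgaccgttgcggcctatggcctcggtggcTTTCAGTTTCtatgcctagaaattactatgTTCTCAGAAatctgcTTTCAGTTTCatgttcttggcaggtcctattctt
Tgtp1: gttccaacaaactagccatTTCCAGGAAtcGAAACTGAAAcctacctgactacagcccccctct
Tgtp2: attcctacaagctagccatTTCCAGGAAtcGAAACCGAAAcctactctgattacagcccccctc

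In Irgm2, Igtp, Tgtp1 and Tgtp2 a gamma-activated site lay directly before the core, in the same order and at the same spacing. It began 75 bases before the start site in Irgm2 and 45 in Igtp, and the core began 64 and 34 bases before it. In Tgtp1 and Tgtp2 the gamma-activated site began 88 and 81 bases before the start site, and the core 77 and 70. Gm12250 held 2 cores on the opposite strand, beginning 91 and 46 bases before the start site, with a gamma-activated site between them at 61. Irgm1 had overlapping cores that began 30 and 24 bases before its start site and no match to the gamma-activated site in the window.

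Aligned without gaps on the first core over 64 bases, the Irgm2 and Igtp stretches were identical at 62 positions (96.9%) and those of Tgtp1 and Tgtp2 at 47 (73.4%). After the core the Tgtp2 stretch holds an extra base, which puts the rest out of register with Tgtp1. The share without gaps therefore understates how alike the Tgtp1 and Tgtp2 stretches are. Irgm2 and Tgtp2 shared 45 positions (70.3%), whereas Irgm1 and Irgm2 shared 18 (28.1%). Of the 32851 promoter windows in the table, 3.44% held the core, 8.30% the gamma-activated site, 0.454% both, and 0.161% both with their first bases within 30 bases of each other. A match is a run of letters and was not tested for binding.

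**Figure D1:**
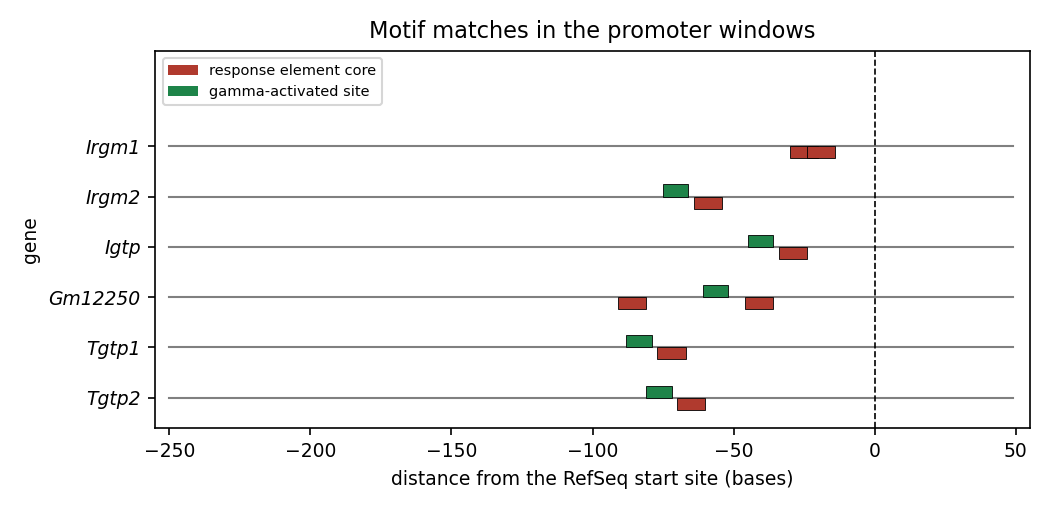
Position of motif matches in the promoter windows of 6 IRG genes, in bases from the RefSeq start site (dashed line), with response element cores drawn below each line and gamma-activated sites above it. In Irgm2, Igtp, Tgtp1 and Tgtp2 the gamma-activated site lies just before the core, in Gm12250 it lies between 2 cores, and Irgm1 has cores alone.

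The deposited values were 1 intensity for each probe set on each array. The arrays numbered 1 and those numbered 2 were on different scales, with median intensities of 37.1 and 37.9 against 57.3 and 57.1, and their values were written with a median of 10 and 7 digits. Each number was therefore read as a batch that holds 1 Tc1 and 1 Tc9 array, and changes are also given within each number. The main fit leaves the number out, so its SEs and p-values are unpaired. A fit with the number as a block (the replicate block) is given as an alternative. Values below are quantile normalized intensities, fold changes are on the log2(intensity + 16) scale, and p-values are from limma with Benjamini-Hochberg adjustment over all genes (threshold 0.05). The CD8 chain gene Cd8a measured 5305 and 4603 in Tc1 and 5272 and 4178 in Tc9, and the T cell receptor gene Cd3e lay between 5405 and 6915 on all 4 arrays. The 6 T cell markers were above background on all 4 arrays, with log2 changes from -0.30 to 0.54 of which 0 passed limma (1 higher at an unadjusted p under 0.05; 1 lower and 3 higher with the replicate block), and Cd8b1 had -0.27, called lower with the block. Macrophages also express IRG genes, and the part of other cells in the results was not tested. All 7 measured macrophage and monocyte markers, all 6 of dendritic cells and all 3 of NK cells lay on all 4 arrays under the background limit, here the 95th percentile of the negative control probe sets of the same array. The summed macrophage and monocyte markers came to 246 and 285 in Tc1 and 267 and 336 in Tc9. Of 5 B cell markers 4 lay under that limit throughout. With the replicate block 1 macrophage and monocyte marker and 1 B cell marker were called higher in Tc9 and 0 of either lower. Of the dendritic and NK cell markers 0 were called with it.

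All 6 measured members had lower signal on both Tc9 arrays than on both Tc1 arrays, and 5 of the 6 fell by limma. Among all genes tested, 0.179% were called lower and 0.385% higher in Tc9, and 15.1% had both Tc9 arrays below both Tc1 arrays. The median log2 change of the 6 was -1.42, against -0.0027 over all genes, and the members ranged from -2.16 to -0.80. Within the arrays numbered 1 and 2 their medians were -1.49 and -1.25. With the intensities as deposited, where the gap in scale counts as spread within groups, 0 of the 6 passed (limma adjusted p = 1.00 for each, 4 with an unadjusted p under 0.05). With the replicate number as a block all 6 were called lower, by a fit that called 7.37% of all genes lower and 6.34% higher. In total RNA from many cells, fewer cells that express a gene and less RNA per cell cannot be told apart.

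**Figure D2:**
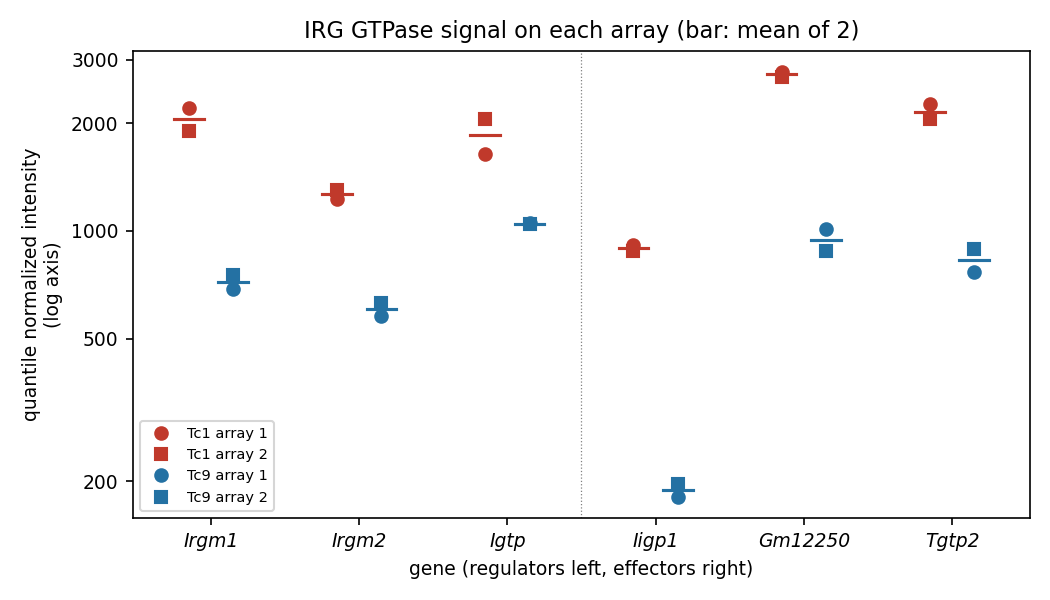
Quantile normalized intensity (log axis) of the 6 measured IRG genes on each array, circles for arrays numbered 1 and squares for arrays numbered 2, red for Tc1 and blue for Tc9, with a bar at the mean of each group. For every gene both Tc9 points lie below both Tc1 points, with the widest gap for Iigp1 and the narrowest for Igtp.

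Among the regulators, Irgm1 changed most. Irgm1, which in mice protects against mycobacteria and keeps CD4 T cells alive when interferon gamma is present, measured 2201 and 1899 on the Tc1 arrays numbered 1 and 2 and 688 and 753 on the Tc9 arrays. Both Tc1 values were more than 2-fold above both Tc9 values. The log2 change was -1.49 ± 0.14 (SE, n = 2 arrays a group, limma adjusted p = 0.00705), or 2.80-fold lower in Tc9, with -1.65 and -1.32 within the numbers.

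Irgm2, a regulator found on Golgi membranes, measured 1231 and 1304 in Tc1 and 579 and 628 in Tc9. The replicates lay close together and the groups were well apart. The log2 change of Irgm2 was -1.05 ± 0.14 (SE, limma adjusted p = 0.0271), 2.07-fold lower, and the numbers gave -1.07 and -1.03. That call was lost with median centring of the deposited values (limma adjusted p = 0.181) and without the intensity trend (0.0819).

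Igtp, a regulator of the endoplasmic reticulum and of lipid droplets, measured 1643 and 2051 in Tc1 and 1051 and 1042 in Tc9. Its Tc9 values nearly coincided, while its Tc1 values differed by a wider margin, with the array numbered 1 the lower. The log2 change was -0.80 ± 0.15 (SE), which missed the threshold (limma adjusted p = 0.103). Within the numbers it was -0.64 and -0.97. With the replicate number as a block Igtp passed (limma adjusted p = 1.90e-31). That fit has 1 residual degree of freedom and an infinite prior, so genes of like intensity share a single spread. Fits without 1 array have the same limit and leave 1 array in a group, so only their log2 changes are given. For Igtp the log2 change was -0.95 without the Tc1 array numbered 1 and -0.64 without the Tc1 array numbered 2. Without the Tc9 array numbered 1 it was -0.80, and without the Tc9 array numbered 2 it was -0.81.

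Of the effectors, Iigp1 changed most of all members. Iigp1, a GTPase that coats the Toxoplasma vacuole, measured 913 and 879 in Tc1 and 181 and 196 in Tc9. Its replicates differed little beside the gap between the groups. The log2 change was -2.16 ± 0.16 (SE, limma adjusted p = 0.00370), or 4.46-fold, with -2.24 and -2.08 within the numbers, and Iigp1 stood 8th from the lowest of the 19505 genes by log2 change. Its deposited Tc9 intensities, 133 and 251, were only a little above the background limit of those arrays, 123 and 197, so the size of its fold rests on a signal near background.

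Gm12250, the effector that helps to break open bacterial membranes, measured 2777 and 2688 in Tc1 and 1011 and 877 in Tc9. The groups did not overlap. The log2 change was -1.52 ± 0.13 (SE, limma adjusted p = 0.00516), 2.87-fold lower, with -1.44 and -1.60 within the numbers.

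Tgtp2, first described as a T cell-specific GTPase, measured 2260 and 2048 in Tc1 and 769 and 889 in Tc9. Here too both Tc9 arrays were far below the Tc1 arrays. The log2 change was -1.36 ± 0.14 (SE, limma adjusted p = 0.00926), 2.57-fold lower, with -1.54 and -1.19 within the numbers. Its probe set is annotated with a RefSeq transcript of Tgtp2, and whether it also takes up Tgtp1 transcript was not examined. The calls of Irgm1 and Tgtp2 were lost without the intensity trend (limma adjusted p = 0.0501 and 0.0597), with the log2 changes as before.

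**Figure D3:**
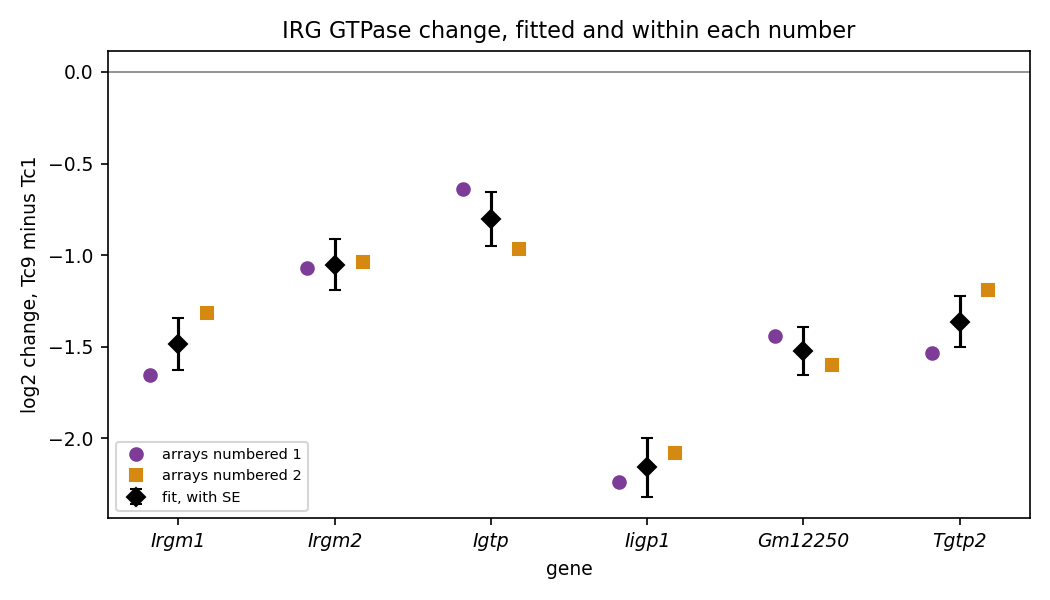
Log2 change of each measured IRG gene, Tc9 minus Tc1, as fitted (diamonds, with SE) and within the arrays numbered 1 (circles) and 2 (squares). All points lie below 0, from -0.64 for Igtp to -2.24 for Iigp1, and neither number gives the larger change throughout.

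The effector branch had the larger mean change. It averaged -1.68 over Iigp1, Gm12250 and Tgtp2, against -1.11 over the regulators Irgm1, Irgm2 and Igtp. The difference was present within both numbers, at -1.74 against -1.12 and at -1.62 against -1.11. But the branches overlapped, since Irgm1 (-1.49) fell by more than Tgtp2 (-1.36) and by about as much as Gm12250 (-1.52). The effector mean includes Iigp1 (-2.16), the lowest member, whose Tc9 signal was near background. The difference between the branches was not tested. Irgm2 and Igtp, whose promoter stretches were nearly identical, had log2 changes of -1.05 ± 0.14 and -0.80 ± 0.15 (SE), and -1.07 and -0.64 within number 1 against -1.03 and -0.97 within number 2, a difference that was not tested.

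Other IRG and IRG-like genes were mixed, and 0 of the 8 measured passed limma (at an unadjusted p under 0.05, 3 were lower). Of the 8, 3 were lower with the replicate block and none higher, and their median log2 change was -0.07. Gm4841 and Gm4951, relatives of Iigp1, measured 168 and 330 against 42.1 and 84.8, and 110 and 193 against 34.5 and 47.3, in Tc1 and Tc9. These groups did not overlap, with log2 changes of -1.72 ± 0.39 (SE, limma adjusted p = 0.207) and -1.52 ± 0.32 (0.163), but both genes lay above the background limit on only 1 array. Gm5431, which neighbours Irgm1, had a log2 change of -0.67 (limma adjusted p = 0.730). The tandem IRG-like genes 9930111J21Rik1 and 9930111J21Rik2, which lie on either side of Tgtp1, were slightly higher on both Tc9 arrays, at 0.24 ± 0.16 and 0.17 ± 0.16 (SE, limma adjusted p = 1.00 for both). Irgc1 and Irgq lay under the limit on all 4 arrays. The genes of this paragraph were named after their values were seen.

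The guanylate-binding proteins, a second family of interferon-induced GTPases that is recruited to the same vacuoles, were also lower in Tc9. Of 6 measured of 11 listed, 4 fell and the other two were lower on both Tc9 arrays, with a median log2 change of -1.85. Gbp2 measured 3264 and 3412 in Tc1 and 789 and 754 in Tc9. Gbp4 measured 2325 and 2000 against 596 and 624, a log2 change of -1.80 ± 0.14 (SE, limma adjusted p = 0.00396). Gbp3 and Gbp7 had log2 changes of -1.93 and -1.89. The deposited Tc9 intensities of Gbp3, 131 and 259, were only a little above the background limit of those arrays, 123 and 197. Of the genes not called, 1 lay under the limit on both Tc9 arrays and the other on 1 of them. All 4 calls were lost with the intensities as deposited (limma adjusted p of 0.778 or more). Sharing of signal between the probe sets of these close relatives was not examined. Of 4 other interferon-inducible GTPases 0 passed limma (at an unadjusted p under 0.05, 2 were lower), and 2 were lower with the replicate block.

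Upstream of these GTPases, 2 of 17 measured genes of interferon signalling fell, Ifng and Irf1, and 0 rose (4 were lower and 1 higher at an unadjusted p under 0.05). With the replicate block 5 were lower and 4 higher, Ifngr2 among the higher and Irf8 among the lower. Ifng, the ligand, measured 4699 and 4077 in Tc1 and 2330 and 2104 in Tc9. Its call was lost without the intensity trend (limma adjusted p = 0.134) and with the intensities as deposited (1.00). Irf1, a transcription factor that interferon gamma induces, measured 1894 and 1827 against 1049 and 954, a log2 change of -0.88 ± 0.13 (SE, limma adjusted p = 0.0425). Its call was lost with the pseudocount of 64 (limma adjusted p = 0.0506), with a robust variance model (0.0534) and without the intensity trend (0.134). It was also lost with median centring (limma adjusted p = 0.108) and with the intensities as deposited. Ifngr2, the signalling chain of the interferon gamma receptor, went the other way, from 238 and 262 to 501 and 608 (log2 change 1.10 ± 0.18, SE, limma adjusted p = 0.0622). The ligand-binding chain Ifngr1 measured 812 and 646 in Tc1 and 883 and 583 in Tc9, so the groups overlapped. Irf8 had a log2 change of -0.83 (limma adjusted p = 0.375). Ifngr2, Ifngr1 and Irf8 were named after their values were seen.

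Of the cell machinery that IRG and guanylate-binding proteins need at the vacuole, 2 lists were measured. The ATG8 conjugation list holds the genes of the ubiquitin-like ATG8 proteins (Gabarap and Map1lc3 genes) and Atg genes of the machinery that attaches them to membranes. This system directs both GTPase families. Of the 12 measured 0 passed limma (1 was higher at an unadjusted p under 0.05), and their median log2 change was 0.01, from -0.33 to 0.69. The highest, Map1lc3a, lay under the background limit on all 4 arrays. With the replicate block 1 was lower, Atg3 of the machinery. The 3 that were higher with it were the ATG8 genes Gabarap, Map1lc3a and Map1lc3b. These genes were named after their values were seen. Of 5 measured ubiquitin ligases and adaptors of the vacuole 0 passed limma (1 lower and 1 higher at an unadjusted p under 0.05), with a median of 0.25, and with the replicate block 1 was lower and 3 were higher, Traf6 among the latter. Traf6, a ligase that acts at IRG-coated vacuoles, was nearest the threshold, at 651 and 658 against 1182 and 1317 (log2 change 0.91 ± 0.14, SE, limma adjusted p = 0.0503), and was named after its values were seen.

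**Figure D4:**
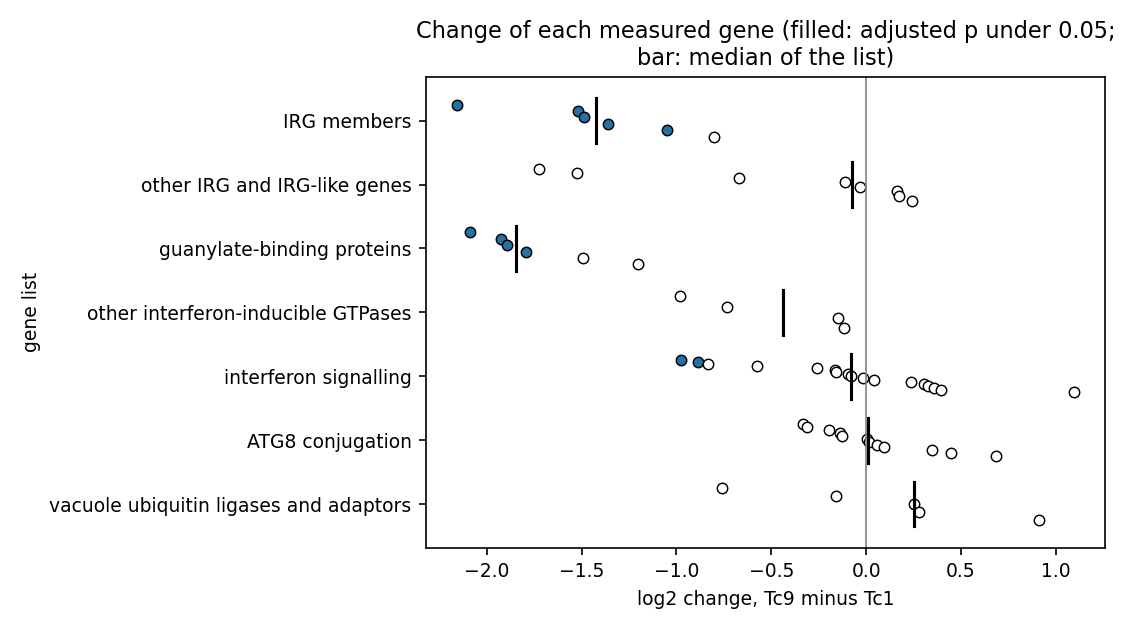
Log2 change, Tc9 minus Tc1, of each measured gene (circles) in the IRG members and 6 related gene lists, filled where limma adjusted p was under 0.05, with a bar at the median of each list. The IRG members (median -1.42) and guanylate-binding proteins (-1.85) lie to the left of 0, while ATG8 conjugation genes spread around it (0.01).

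The genes nearest to the members' shared pattern were sought by the root mean square difference, over the 4 arrays, between a gene's log2 values and the mean of the members, each after subtracting its own mean. The 5 nearest were Lipg (0.0653), an endothelial lipase gene, Ifitm3 (0.0696), an antiviral membrane protein gene, Cxcl9 (0.0719), an interferon gamma-induced chemokine gene, Asph (0.0740), a hydroxylase gene, and Slfn8 (0.0834), a Schlafen family gene. Members themselves lay between 0.0722 (Tgtp2) and 0.381 (Iigp1) from their mean. None of the 5 passed limma (adjusted p from 0.0503 to 0.0881), their unadjusted p-values lay under 0.05, and on both Tc9 arrays all 5 were under the background limit, Ifitm3 and Cxcl9 on the Tc1 arrays as well. Likeness over 4 arrays describes these arrays alone.

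Most other genes with these motifs in their promoters had changes near 0. But of all 19505 genes tested, 11738 lay under the background limit on all 4 arrays, and genes without signal can show little change. How many of the genes with these motifs lay under it was not counted, so medians near 0 do not tell whether expressed genes with the motifs changed. All 5 measured members with a promoter in the table held the core, as did 3.94% of the 15691 genes tested that had a promoter. Since the motifs were chosen after the members' promoters had been seen, counts that include members are description and no test. Of 29 genes called lower in Tc9 with a promoter 10 held the core (34.5%), among them Irgm1, Irgm2, Gm12250, Tgtp2, Gbp2, Gbp3 and Gbp7, and of 58 called higher 3 did (5.17%). The 613 other genes with the core had a median log2 change of -0.02, with 6 called lower (0.979%), against 0.126% of the 15073 genes without it. A core and a gamma-activated site within 30 bases of each other were found in 36 genes, of which Gm12250, Tgtp2, Irgm2 and Igtp were 4 of the 5 lowest by log2 change. The remaining 32 had a median of 0.0031, and 0 of them passed limma (3 lower and 1 higher at an unadjusted p under 0.05).

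**Figure D5:**
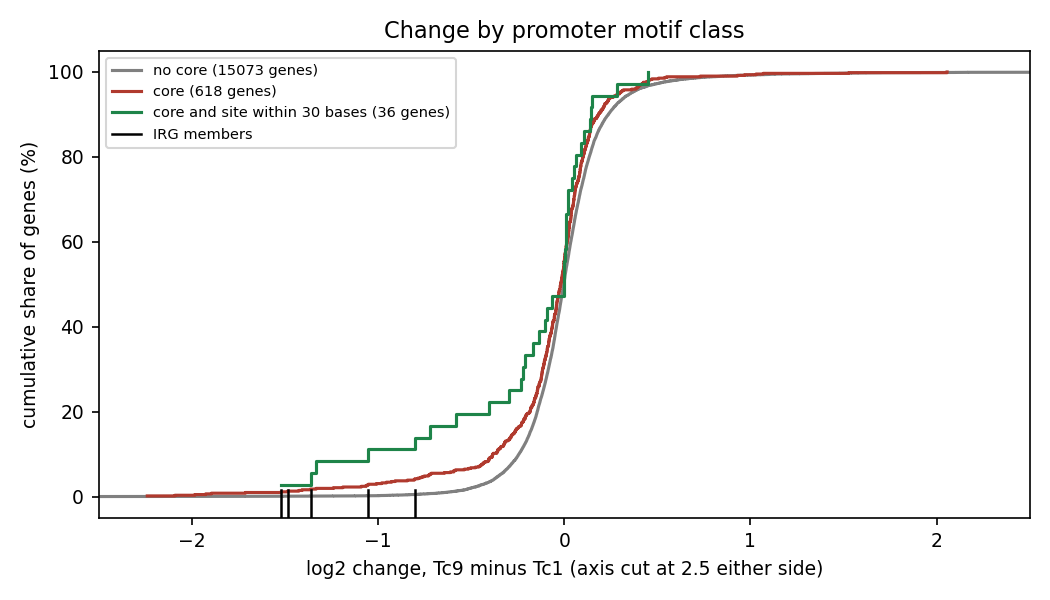
Cumulative share of genes (percent) against log2 change, Tc9 minus Tc1, for genes without the core in their promoter window, with it, and with a core and a gamma-activated site within 30 bases, with ticks at 5 IRG members. The members are included in the last 2 curves, which depart from the grey curve mainly below 0 and meet it near 0.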

How the data were processed

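The authors deposited 1 intensity per probe set and array on a linear scale, read from the values. Labelling followed the Affymetrix protocol, per the labels' protocols, and background correction, summarization, software and genome build were not given in the sources used here. Of 28846 probe sets, 6640 controls were left out. The platform annotation gave 19572 of the other 22206 a single symbol, 0 several and 2634 none. The probe set with the highest mean stood for each of 19505 genes. Intensities were quantile normalized, 16 was added and log2 was taken, which understates changes of dim genes. Tc9 was compared with Tc1 in R 4.3.3 with limma 3.58.1 (eBayes with an intensity trend, 2 residual and 5.09 prior degrees of freedom). On simulated data this fit called 77% of planted changes of 1 log2 unit and 100% of those of 2, with 18 false calls. Changes were planted in only a small part of the 19505 genes, so the 18 are a far larger share of the calls than of the genes. The simulated noise was drawn with the spreads that this fit itself had estimated. It was independent between arrays, whereas arrays of the same number deviated together here, so the simulation does not test the fit under such shared deviations. The small number of arrays limits the precision.

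The members and gene lists were chosen with earlier results of these data known. Genes named are all measured members, up to 5 called genes a list, Ifng, Irf1, Cd3e, Cd8a and the 5 genes nearest in pattern, with others marked as named after their values were seen. Alternatives were other normalizations, pseudocounts, filters, variance models, probe set averages, the replicate number as a block and leaving out each array.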

Additional observations from a re-analysis of the deposited data

How the results depend on the processing

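All 6 measured members kept a negative log2 change under all 16 alternatives, and their median stayed between -1.32 and -1.51. Of the members, 5 passed limma in the report, 0 with the intensities as deposited, 2 without the intensity trend, 4 with median centring and 6 with the replicate block. As deposited, the scale gap between the arrays numbered 1 and 2 counts as spread within groups. With the block added to the deposited or to the median-centred values, chosen after seeing the data, all 6 passed. Over all genes, 110 passed in the report (75 higher, 35 lower), 16 as deposited (13 higher, 3 lower), 56 without the trend, 2674 with the replicate block, 2813 and 2740 with the block on deposited and on median-centred values, and 184 to 277 without 1 array, 184 without the Tc1 array numbered 1, 192 without the Tc1 array numbered 2, 246 without the Tc9 array numbered 1 and 277 without the Tc9 array numbered 2. The direction of Cd8a was not settled, from -0.23 to 0.095 when 1 array was left out. The labels do not say that the numbers pair the arrays, and arrays of the same number deviated together from their group means across genes (r = 0.729), with only 2 pairs to show it.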

Other observations

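The members on chromosome 11 lie in 2 groups by gene order in the RefSeq table (GRCm38.p6), 1 from Irgm1 to Tgtp2 and 1 from Gm12250 through Igtp to Irgm2. Of the 24 other measured genes within these groups or among the 5 on either side, 0 passed limma (1 had an unadjusted p under 0.05) and 4 were lower with the replicate block. Their median log2 change was 0.00062, from -0.67 for Gm5431 to 0.24 for 9930111J21Rik1, and 11 lay on all 4 arrays above the background limit. Psme2b, listed between Irgm1 and Tgtp2, had a log2 change of -0.14 ± 0.16 (SE). Mrpl22, the measured gene before Gm12250, had -0.14 ± 0.19 and Zfp692, the one after Irgm2, -0.13 ± 0.18.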
